A study of Mus musculus with 2 samples.

Results

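MHC class II molecules are pairs of an alpha and a beta chain that show peptides from taken-up proteins to CD4 T cells. The genes examined here are 8 that build and load these molecules: H2-Aa, H2-Ab1 and H2-Eb1 for the chains, H2-DMa and H2-DMb1 for the peptide-exchange factor H2-M, Cd74 for the invariant chain, Ciita for the transactivator, and Cd207, which encodes langerin, a lectin of Langerhans cells. They were chosen by name, after their differences between the pools were known, as every non-control probe that the array files assign to 1 of these genes. That gave 11 probes for 8 genes, of 24275 named genes on the array. The choice rests on the same contrast that is described below, so all values here are a description without a test, and with 1 array per genotype there was no replicate check.

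Skin RNA was measured from newborn mice of the strain C57BL/6N at P0. The Pla2g4e-/- pool held equal amounts of skin RNA from 5 knockout animals, and the Pla2g4e+/+ pool held the same from 5 wild-type animals. The product of Pla2g4e is a calcium-dependent N-acyltransferase of the cytosolic phospholipase A2 family. The sources used here do not say which part of the gene the null allele lacks. Each pool was hybridised to 1 Agilent array with Cy3, so there were 2 arrays in all, on the same slide in different positions, and position and genotype cannot be told apart.

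In the newborn, class II is carried in skin by dendritic cells and some macrophages, and embryonic precursors of Langerhans cells have settled in the epidermis but gain langerin and high class II around and after birth. The class II genes share a promoter layout. An X box bound by the RFX complex and a Y box bound by the NF-Y complex lie at a fixed spacing, and CIITA docks on these factors to switch the genes on. The invariant chain blocks the peptide groove until proteases cut it down, after which H2-M exchanges the remaining fragment for a peptide.

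The arrays were similar in overall signal. A total of 80.8% of probes were well above background on the knockout array and 78.0% on the wild-type array, 0 spots were saturated on either, and the 75th percentile of intensity was 2096 scanner units on the knockout array and 2233 on the wild-type array. Epidermal keratins were bright in both pools, with Krt14, a basal keratin, at 87086 units in the knockout pool and 92691 units in the wild-type pool. The brighter Pla2g4e probe read 320 units in the knockout pool and 662 units in the wild-type pool, and whether it lies in a deleted part of the gene is unknown, so it checks nothing about the labels. The Y-linked Ddx3y read 2.36 units in the knockout pool, below background, and 2893 units in the wild-type pool, while the brighter Xist probe read 2889 units in the knockout pool and 796 units in the wild-type pool. The pools were therefore unlike in sex as well as in genotype, and the part of this in any result below was not tested. The scanner software gave a difference between the pools a median error of 0.20 log2. Over 341 probes printed 10 times, the SD of the difference among spots had a median of 0.038 log2. Both errors describe spots and leave out the spread between animals.

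The promoters of 3 members and 3 other class II genes are printed to show where X and Y cores were found in them. RefSeq windows on GRCm38.p6, from 250 bases before to 50 after the start, were found for 5 of the 8 members (H2-Aa, H2-Eb1, H2-DMa, H2-DMb1 and Cd207). The X core searched was AGNAAC and the Y core was ATTGG, on both strands and with no overlap between them. The stretches below run from 140 to 31 bases before the start, 5′ to 3′ on the gene's strand, with the X core and the Y core in capitals. In H2-Aa the letters of the X core were GNAAC. The first 3 are members and the next 3 are class II genes of the same region that are set against them further on.
H2-Aa (chr17:34287854-34287963, minus strand): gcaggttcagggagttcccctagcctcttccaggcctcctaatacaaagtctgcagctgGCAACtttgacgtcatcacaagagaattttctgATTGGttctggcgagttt
H2-Eb1 (chr17:34305727-34305836, plus strand): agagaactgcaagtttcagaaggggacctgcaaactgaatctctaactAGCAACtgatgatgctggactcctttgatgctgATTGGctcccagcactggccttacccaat
H2-DMb1 (chr17:34153051-34153160, plus strand): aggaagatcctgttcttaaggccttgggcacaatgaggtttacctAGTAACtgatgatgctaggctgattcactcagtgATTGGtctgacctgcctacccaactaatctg
H2-Oa (chr17:34092239-34092348, plus strand): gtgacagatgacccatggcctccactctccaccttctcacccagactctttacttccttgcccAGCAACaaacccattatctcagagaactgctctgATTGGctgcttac
H2-Ob (chr17:34238765-34238874, plus strand): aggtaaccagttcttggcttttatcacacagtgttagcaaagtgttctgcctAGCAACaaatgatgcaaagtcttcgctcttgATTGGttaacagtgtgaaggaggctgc
H2-Eb2 (chr17:34325535-34325644, plus strand): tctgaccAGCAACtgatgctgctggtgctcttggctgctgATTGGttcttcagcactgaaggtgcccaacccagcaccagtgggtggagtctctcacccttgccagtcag

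The distance between the cores was 28 bases in H2-Aa, H2-DMb1 and H2-Oa, 27 in H2-Eb1 and H2-Eb2, and 25 in H2-Ob. Alone, the Y core occurred in 37.4% and the X core in 48.1% of the 32851 windows in the table. With 14 to 20 bases between them, the pair was in 0.438% of windows and in 0 of the 5 members. With 20 to 30 bases, a range chosen after these promoters were seen, it was in 0.594% of windows and in 2 members, H2-Eb1 and H2-DMb1. Loosening the X core to GNAAC, also afterwards, brought in H2-Aa and 1.91% of windows. A match of letters is a description of the sequence and not of binding.

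The chains of the class II molecule read lower in the knockout pool in all 4 probes. In RNA of whole skin, fewer cells that carry class II and less class II RNA per cell cannot be told apart. The I-A beta chain, H2-Ab1, had 2 probes. The first, at mm9 chr17:34406305-34406364, read 3467 units in the knockout pool and 7110 units in the wild-type pool, a difference of -0.95 log2 with a scanner error of 0.20. The second, at chr17:34406296-34406355, read 3311 units in the knockout pool and 7186 units in the wild-type pool, a difference of -1.03 log2. No mm9 gene annotation was used here, so exons and untranslated regions are not given for any probe. The probes share 51 of their 60 bases and differ at 1 of these, so they are nearly the same measurement and not independent support. The 30 bases that hold the differing position are shown with that base in capitals, at mm9 chr17:34406326-34406355 on the plus strand.
H2-Ab1, second probe: agattacaaataaacgagacTcagactctg
H2-Ab1, first probe: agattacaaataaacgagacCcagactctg

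The partner of H2-Ab1 and the I-E beta chain were lower by similar amounts. H2-Aa, the I-A alpha chain, read 204 units in the knockout pool and 368 units in the wild-type pool at mm9 chr17:34421285-34421344, a difference of -0.76 log2 with an error of 0.21. H2-Eb1, the I-E beta chain, read 1732 units in the knockout pool and 3155 units in the wild-type pool at chr17:34453075-34453134, a difference of -0.77 log2. The knockout pool thus held 51.9% of the wild-type signal for H2-Ab1, 59.1% for H2-Aa and 58.5% for H2-Eb1. The 3 genes differ from one another by less than the scanner error of a difference. H2-Ea, which would encode the I-E alpha chain, is silenced in C57BL/6 mice by a promoter deletion, and its probe read 2.61 units in the knockout pool and 3.59 units in the wild-type pool, not well above background on either array.

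The genes for peptide loading also read lower in the knockout pool. Cd74, the invariant chain, read 1602 units in the knockout pool and 2632 units in the wild-type pool at mm9 chr18:60972075-60972132, a difference of -0.62 log2 with an error of 0.20. H2-DMb1, the beta chain of H2-M, read 434 units in the knockout pool and 702 units in the wild-type pool at mm9 chr17:34297109-34297168, a difference of -0.60 log2. H2-DMa, its alpha chain, read 264 units in the knockout pool and 353 units in the wild-type pool from a probe without a mapped position, a difference of -0.33 log2. Cd74 at 1.54-fold and H2-DMb1 at 1.52-fold lower stood just past the size of 1.5-fold used below, and H2-DMa at 1.25-fold lower did not reach it. The gap of 0.28 log2 between the H2-M chains was within its scanner error of 0.29.

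**Figure D1:**
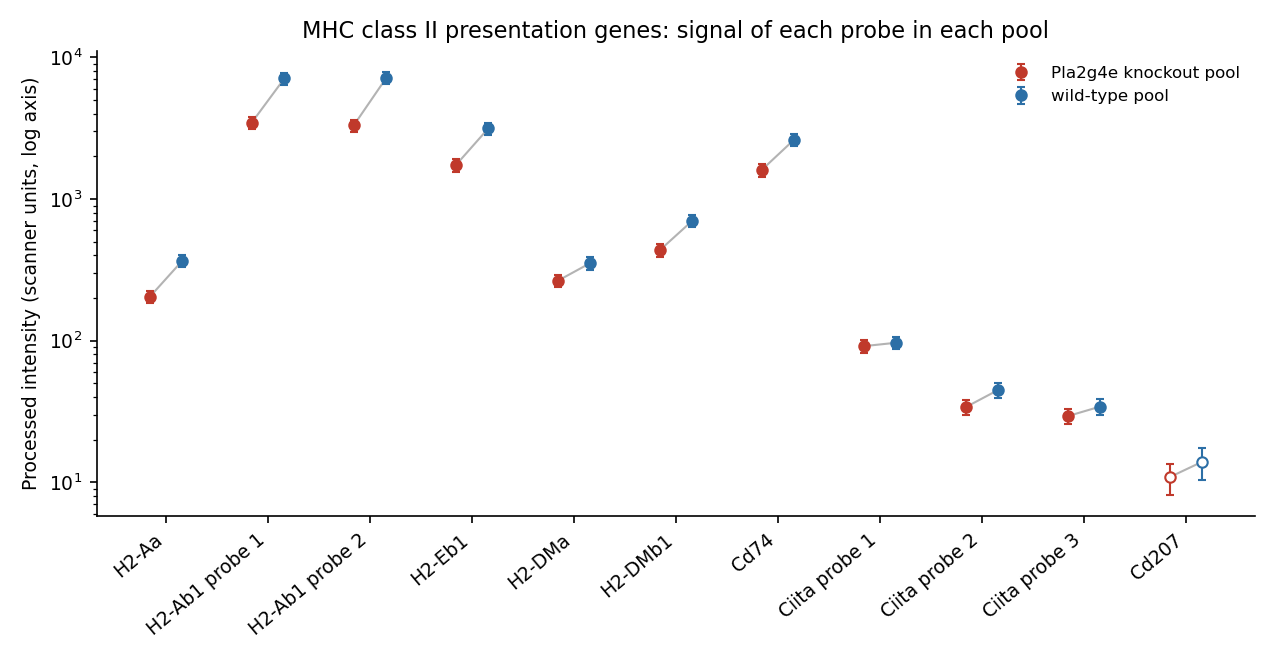
Processed intensity (scanner units, log axis) of the 11 probes in the knockout pool (red, left) and the wild-type pool (blue, right); bars are the scanner error of the spot, and open circles mark spots not well above background. All probes of H2-Aa, H2-Ab1, H2-Eb1, H2-DMa, H2-DMb1 and Cd74 read lower in the knockout pool, while the brightest Ciita probe read 91.4 units in the knockout pool and 96.7 units in the wild-type pool.

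Ciita, the master switch of class II transcription, was dim and read much the same in both pools at its brightest probe. Its brightest probe, at mm9 chr16:10491091-10491150, read 91.4 units in the knockout pool and 96.7 units in the wild-type pool, a scaled difference of 0.01 log2 with an error of 0.21. The second, at chr16:10526568-10526627, read 33.9 units in the knockout pool and 44.9 units in the wild-type pool, a difference of -0.31 log2 with an error of 0.26; how specific this probe is for Ciita is uncertain. The third, at chr16:10492271-10492330, read 29.3 units in the knockout pool and 34.2 units in the wild-type pool, a difference of -0.13 log2. The first and the third are assigned to the same sequence outside RefSeq, and only the second to a RefSeq transcript of Ciita. All 3 probes lay closer to 0 than the probes of the chain genes. These dim probes do not show that Ciita RNA was unchanged. At its brightest probe, the difference of Ciita lay 0.96 log2 above that of H2-Ab1, with a scanner error of 0.29. Its other probes lay closer to H2-Ab1, and the mean over the Ciita probes was -0.15 log2. Cd207 was near background. At mm9 chr6:83621442-83621501 it read 10.9 units in the knockout pool and 13.9 units in the wild-type pool, well above background on neither array, so no fold is given, and Langerhans cells could not be followed through langerin at this signal.

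Of the 7 members that were well above background on both arrays, 5 were lower in the knockout pool by 1.5-fold or more and 0 were higher by as much. Over all 19384 measured genes, 4.49% were lower and 6.74% higher by 1.5-fold or more. In sign alone, 6 of the 7 stood below 0, where 48.2% of all measured genes did. By probe, 6 of the 10 member probes well above background on both arrays were lower by that size, beside 4.25% of all such probes, and 9 stood below 0, beside 48.1%. With genes kept only where both arrays read above their median, which leaves out H2-Aa and Ciita, 4 of 5 members were lower by that size, beside 2.85% of such genes. Since these members were chosen on this contrast, the count says how the group looks and supports nothing further. Their median difference was -0.62 log2, and that of all measured genes was 0.01. H2-Ab1 stood lowest, with 1.64% of all measured genes at or below it and 0.976% of the 2050 genes within 0.5 log2 of its signal. For H2-DMb1 these shares were 4.24% and 4.35%, and for H2-DMa 12.4% and 12.9%. At 2-fold, 0 of the 7 members were past the size, where 1.44% of all measured genes were.

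**Figure D2:**
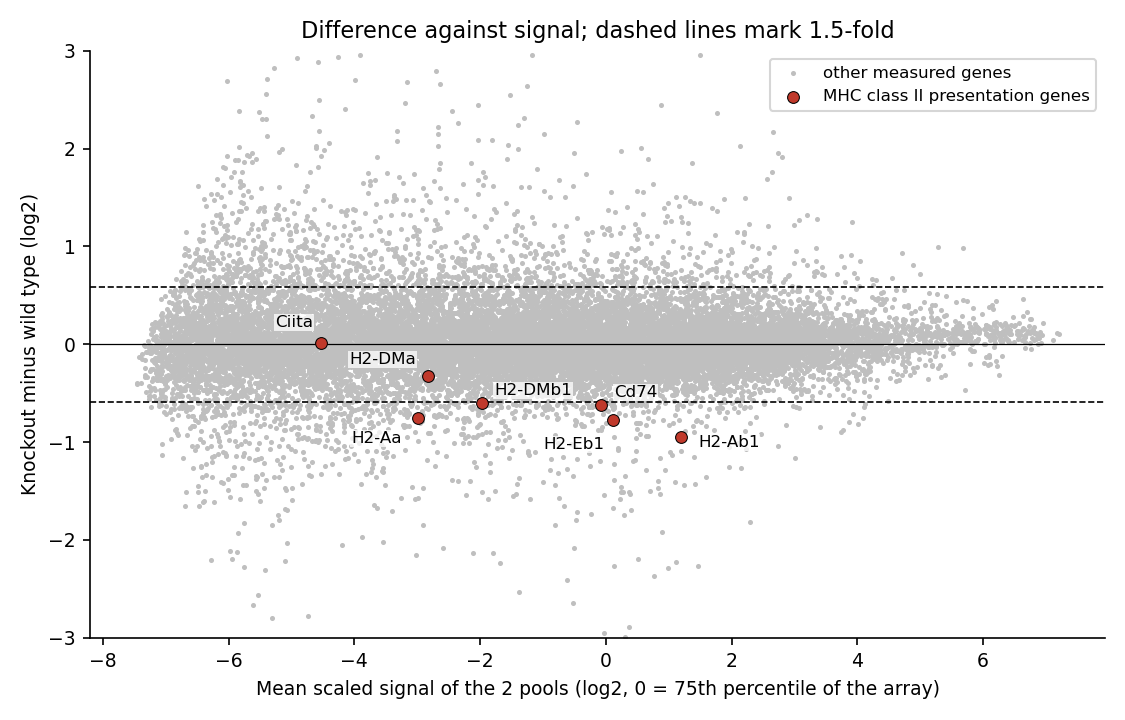
Difference between the pools (knockout minus wild type, log2) against the mean scaled signal of each measured gene, with the class II genes in red; dashed lines mark 1.5-fold, and 24 genes fall outside the drawn range. H2-Ab1, H2-Eb1, H2-Aa, Cd74 and H2-DMb1 lie below the lower dashed line, and H2-DMa and Ciita between the lines.

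No other class II or accessory gene that was measured was lower by 1.5-fold or more. Of 11 other class II and accessory genes, 10 were measured, 0 differed by 1.5-fold or more, and their median was 0.01 log2. The nonclassical and minor class II genes were dim: H2-Oa, a chain of the H2-M inhibitor H2-O, read 22.5 units in the knockout pool and 28.8 units in the wild-type pool, a difference of -0.26 log2 with an error of 0.28. Its partner H2-Ob stood at -0.08 log2, the second H2-M beta chain H2-DMb2 at -0.08 and H2-Eb2 at -0.01. H2-Oa, H2-Ob and H2-Eb2 are the genes whose X and Y cores are printed above beside those of the members.

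The proteases and handlers of class II were bright, and none reached 1.5-fold lower. In RNA of whole skin, the share of their signal that came from cells that carry class II is not known. Cathepsin S (Ctss), which trims the invariant chain, read 7262 units in the knockout pool and 6462 units in the wild-type pool, a difference of 0.26 log2. Legumain (Lgmn), a lysosomal endopeptidase, was the highest of the list at 0.39 log2, and Ctsl stood at 0.20. The thiol reductase Ifi30 stood at -0.03, and the ubiquitin ligases that take class II off the cell surface, Marchf1 and Marchf8, at 0.04 and 0.21.

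None of the measured class II regulators, which are promoter-binding factors and the interferon gamma genes Ifng, Ifngr1 and Ifngr2, was lower by 1.5-fold or more. Of 15, 14 were measured, with a median of 0.18 log2. By that size, 3 were higher in the knockout pool, beside 6.74% of all measured genes. The higher 3 were the interferon gamma receptor chain Ifngr1, at 10265 units in the knockout pool and 5052 units in the wild-type pool (1.11 log2), and the transcription factors Irf4 (1.06) and Irf8 (0.73) of dendritic cells and macrophages. Among X-box factors, Rfx5 stood at -0.34 with an error of 0.28 from a dim probe and at -0.03 from another, Rfxap at 0.19 and Rfxank at 0.34. Among Y-box factors, Nfyb was the lowest of the list at -0.38, with its other 2 probes at -0.45 and -0.46. Nfya stood at 0.09, and Nfyc at 0.13 from its brightest probe and at -0.16 from another. Ifng itself read 10.9 units in the knockout pool and 7.75 units in the wild-type pool, well above background on neither array.

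Targets of interferon gamma, the cytokine that induces Ciita in many cells, did not share the lower signal of the class II genes. Of 16 such genes, 15 were measured, with a median of 0.24 log2. By 1.5-fold or more, 2 were higher, beside 6.74% of all measured genes, and 0 were lower. The 2 were the guanylate-binding proteins Gbp3 (0.84) and Gbp7 (0.77), of which Gbp7 stood at 0.57 with normexp, short of 1.5-fold. The lowest were Nlrc5, which acts on class I genes as CIITA does on class II, at -0.43, and the signalling inhibitor Socs1 at -0.32.

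**Figure D3:**
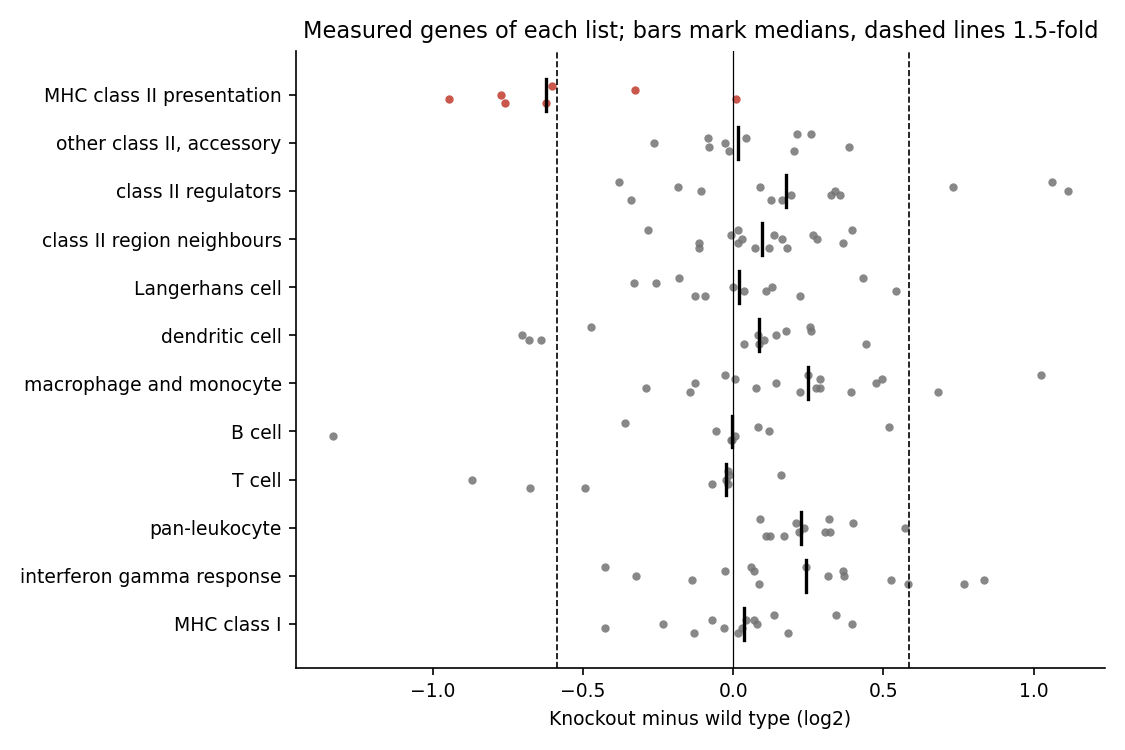
Difference between the pools (knockout minus wild type, log2) for the measured genes of the class II group (red) and of 11 other lists (grey); short bars are medians, dashed lines mark 1.5-fold. The class II group has its median at -0.62, while the medians of the other lists lie between -0.02 and 0.25.

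Markers of the cells that can carry class II are given beside its lower signal, and their part in it was not tested. All 12 pan-leukocyte genes stood above 0, from 0.09 (Cd52) to 0.57 log2 (Itgb2), where 51.8% of all measured genes did. None of them reached 1.5-fold. Their summed signal, in units of each array's 75th percentile, was 25.1 in the knockout pool and 21.8 in the wild-type pool. Ptprc (CD45), carried by all leukocytes, stood at 0.12 log2.

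Of the macrophage and monocyte genes, 13 stood above 0, where 51.8% of all measured genes did. Of 17 measured of 18, 2 were higher by 1.5-fold or more, Cd163 (1.02) and Lyve1 (0.68), beside 6.74% of all measured genes. By that size 0 were lower, and the median was 0.25 log2. Summed signals were 37.7 in the knockout pool and 34.0 in the wild-type pool. The largest parts of these sums came from a Csf1r and an Itgam probe that read far above the other probes of their genes. The Itgam probes differed in sign, at 0.08, 0.36 and -0.21. With normexp background correction Cd163 stood at 0.55, short of 1.5-fold. The lowest were Lyz2 (-0.29) and Aif1 (-0.14). Mrc1, the mannose receptor of tissue macrophages, stood at 0.50.

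Dendritic cell genes were mixed. Of 16, 13 were measured, with a median of 0.09 log2 and summed signals of 43.8 in the knockout pool and 41.5 in the wild-type pool, a sum made up mostly by 1 very bright Siglech probe. By 1.5-fold or more, 3 were lower, beside 4.49% of all measured genes. They were the maturation marker Cd83, at 399 units in the knockout pool and 692 units in the wild-type pool (-0.70 log2), the chemokine Ccl17 (-0.64) and the growth factor receptor Flt3 (-0.68). The Flt3 probes disagree, since a second one stood at 1.67 log2, and so do those of Siglech, at 0.08 and -1.22, and of Zbtb46, at 0.14 and 0.93. With normexp Flt3 stood at -0.51 and Ccl17 at -0.28, and with median pixel signal Ccl17 stood at -0.51, all short of 1.5-fold. The integrin Itgax (CD11c) stood at 0.09, the costimulatory receptor Cd86 at 0.26 and Cd40 was highest at 0.44. Xcr1 and Ccl22 were well above background on neither array and Clec9a on the knockout array alone.

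Langerhans cell genes other than Cd207 showed no member past 1.5-fold. Of 13, 12 were measured, the median was 0.02 log2, and the summed signals were 61.8 in the knockout pool and 58.5 in the wild-type pool. These sums were made up mostly by bright Mfge8, Cd24a, Csf1r and Tgfbr2 probes. Many genes of the list are also expressed by keratinocytes or macrophages, among them Epcam (-0.09), Mfge8 (0.22) and Csf1r (-0.13). The highest were Itgae (0.54) and Id2 (0.43), and the lowest Runx3, a factor that Langerhans cells need, at -0.33 and Gfra2 at -0.26. Ly75 (DEC-205) was not well above background on either array, nor was Cd207, so neither could be followed.

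B cells also carry class II. Of 10 B cell genes, 9 were measured, with a median of -0.00 log2 and summed signals of 0.744 in the knockout pool and 0.711 in the wild-type pool. Ms4a1 (CD20) was the 1 past 1.5-fold, at 22.0 units in the knockout pool and 59.0 units in the wild-type pool (-1.33 log2), while Cd79a stood at 0.12, Pax5 at -0.36 and Cd79b at 0.52. With normexp background correction Ms4a1 stood at -0.43 log2, short of 1.5-fold, and with median pixel signal at -0.80. Among T cell genes, 9 of 12 were measured, and Cd3g (-0.87) and Cd3d (-0.68), chains of the T cell receptor complex, were the 2 past 1.5-fold, both lower. Cd3e, of the same complex, stood at -0.07 and Cd247 was highest at 0.16. Cd4 stood at -0.02 from its brightest probe and at -0.37, with an error of 0.21, from another. The kinase Lck stood at -0.49. Cd3d was short of 1.5-fold with normexp, at -0.55. In all, 8 of the 9 T cell genes stood below 0, where 48.2% of all measured genes did. Among the 8, Thy1 and Cd5 stood at -0.02 and Cd2 at -0.01, within their scanner errors. Beside the B cell and T cell counts, 4.49% of all measured genes were lower by 1.5-fold or more. The T cell median was -0.02 log2. Summed signals were 11.7 in the knockout pool and 12.2 in the wild-type pool, made up mostly by the bright Thy1 probe. Thy1 read 18574 units in the knockout pool and 20016 units in the wild-type pool, so the sums say little about the other T cell genes.

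The class II chain genes and H2-DMb1 lie together on chromosome 17, and genes between them did not share their difference. The mapped member probes there span 156 kb, and with 200 kb on either side, from 34097109 to 34653134 on mm9, 26 genes had a measured probe, 4 of them members. Of the other 22, 1 was lower by 1.5-fold or more, the butyrophilin-like gene Btnl1, at 26.1 units in the knockout pool and 49.4 units in the wild-type pool (-0.83 log2). Another, AA388235, was higher by that size, at 1.48 log2, and the median of the 22 was 0.02. Over all measured genes, 4.49% were lower and 6.74% higher by 1.5-fold or more. Psmb9, Tap1 and Psmb8, which serve class I and lie between H2-DMb1 and H2-Ab1, stood at 0.02, 0.03 and 0.14 log2, and Tap2, their neighbour, at 0.40. A list of 16 neighbours drawn up by name, which overlaps these genes, had 0 past 1.5-fold and ran from -0.28 (Pbx2) to 0.40 (Tap2), with a median of 0.10.

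**Figure D4:**
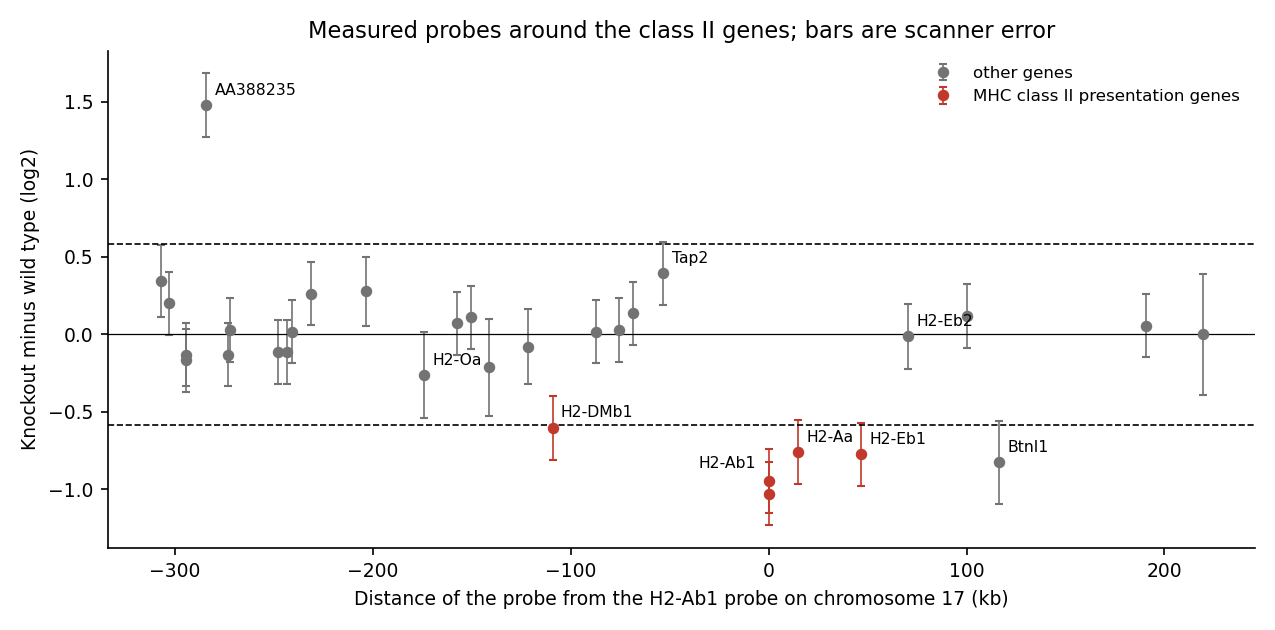
Difference between the pools (knockout minus wild type, log2) for each measured probe around the class II genes, against its distance in kb from the H2-Ab1 probe; bars are scanner error and dashed lines mark 1.5-fold. H2-DMb1, H2-Ab1, H2-Aa and H2-Eb1 (red) lie below the lower line, and Btnl1 is the 1 other gene there.

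Over the settings that kept each gene, H2-Ab1 ran from -1.04 to -0.93 log2, H2-Eb1 from -0.87 to -0.76, H2-Aa from -0.85 to -0.62 and Cd74 from -0.72 to -0.62. The setting with signals above the median on both arrays left out H2-Aa and Ciita. H2-DMb1, near the size of 1.5-fold, ran from -0.69 to -0.57 and was short of it with normexp background correction. H2-DMa stayed between -0.42 and -0.28, and Ciita between -0.15 and 0.02, which changes its sign but not its place near 0.

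**Figure D5:**
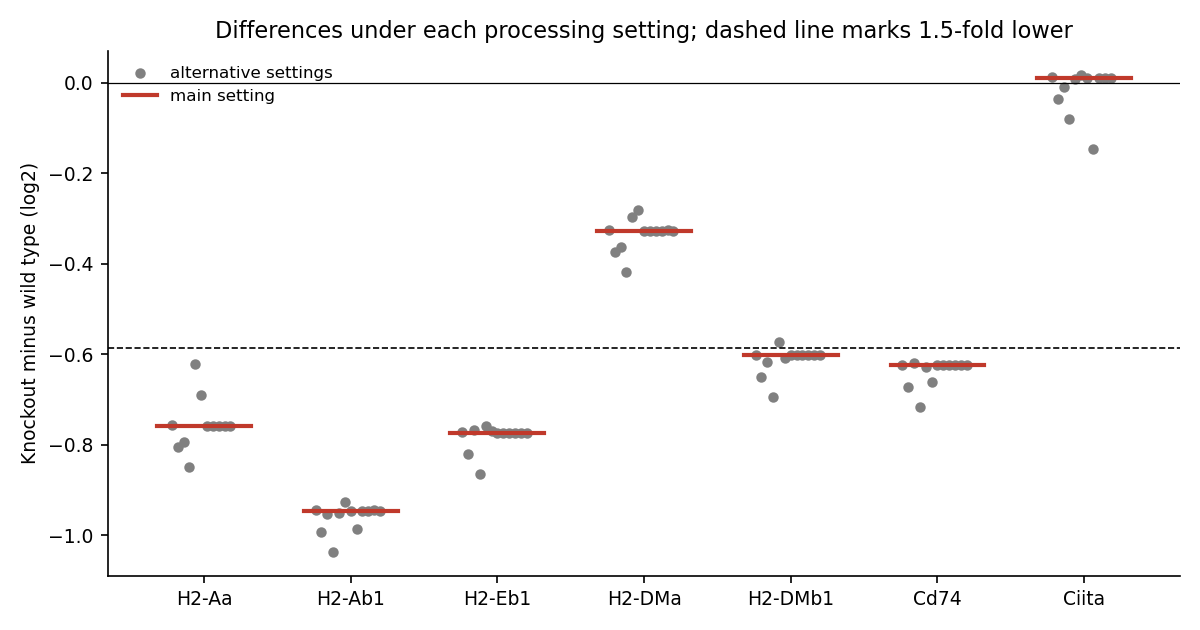
Difference between the pools (knockout minus wild type, log2) of the 7 measured members under the main setting (red bars) and each alternative setting (grey points); the dashed line marks 1.5-fold lower. H2-Ab1, H2-Eb1, H2-Aa and Cd74 stay below the line in every setting drawn, and H2-DMb1 has 1 point above it.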

How the data were processed

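The deposited scanner files give each spot's intensity on a linear scale, made with Agilent Feature Extraction 11.5.1.1, per the submitters' processing notes, under the protocol GE1_1105_Oct12; a fitted background surface had been subtracted and a multiplicative spatial trend divided out, per the file headers. RNA was 200 ng per labelling. The deposited value table holds a ratio, which equalled the processed intensity divided by 2273 (knockout array) or 2406 (wild-type array) over 44397 spots; its column medians were 0.0969 (knockout) and 0.0946 (wild type), and it is not centred by gene.

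Values used here were log2 of processed intensity, averaged over spots of a probe, minus the array's 75th percentile. Control spots and 234 outlier spots were left out. Of 39422 probes, 28326 were named by accession, 2204 by symbol and 174 by synonym in RefSeq GRCm38.p6, used for names and promoter windows; 1754 kept the file's name and 6964 had none. A gene took its brightest probe well above background on both arrays. With 1 array per group no test was run; a size of 1.5-fold was used, and p-values are not given. The scripts were tested on simulated data. Members, the 11 other lists and the rule for named genes (all members; each list's extremes and small counts) were chosen with earlier results of these data known; other genes were picked after their values were seen. Python 3.11.15, pandas 2.3.3 and limma 3.58.1 were used. Some genes and sequences were left out of this text.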

Additional observations from a re-analysis of the deposited data

How the results depend on the processing

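The alternatives changed the scaling, background correction, spot summary, source of values, probe rule, dim-probe filter, fold size, outlier spots and gene names; the last 2 and the wider motif searches were added after the data were seen. The median of the members and their count at 1.5-fold stayed within the scanner error or within 1.5 times of the main value, except that 0 members passed 2-fold. Among the 147 genes of the other lists, not all of them measured, the lower calls numbered 6. They numbered 2 with normexp and 1 at 2-fold. With signals above the median on both arrays they numbered 1, since that filter leaves out Flt3, Ccl17, Ms4a1, Cd3d and Cd3g. Of all genes kept by that filter, 2.85% were lower by 1.5-fold or more. The higher calls numbered 7, but 3 at 2-fold. Over all measured genes at the main setting, 4.49% were lower and 6.74% higher by 1.5-fold or more. With normexp Ms4a1, Ccl17, Flt3, Cd3d, Cd163 and Gbp7 were short of 1.5-fold. Flt3 stood at 0.50 log2 as the mean over its probes, against -0.68 from its brightest. The promoter pair was in 0 members as first searched, 2 with the wider spacing and 3 with GNAAC as well. No paired analysis was possible because each genotype was 1 array. Dim probes limit what can be said of Ciita, Cd207, H2-Oa and Ifng.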

Other observations

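MHC class I genes, which present peptides made inside the cell, did not share the lower signal of class II. Of 14 class I genes, all were measured, 0 differed by 1.5-fold or more between the pools, and their median was 0.04 log2. The classical heavy chains H2-K1 and H2-D1 stood at -0.13 and -0.03 log2, and their light chain B2m read 24975 units in the knockout pool and 23448 units in the wild-type pool, a difference of 0.18. Tap2 (0.40) and H2-T23 (0.34) were highest, and Nlrc5 (-0.43) and the chaperone Calr (-0.23) lowest. Class I probes can share sequence among near-identical heavy chain genes, so single heavy chain values are uncertain.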
